A study of Mus musculus with 7 samples.

Results

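Clcn4-2 and Gm8615 are autosomal mouse genes whose RNA was either readily counted or almost missing, library by library, in the cortex of 7 APP/PS1 mice. They are 2 of the 23413 gene symbols counted, and both were among the 15881 genes that passed the filter on low counts. Both were chosen by their counts in these same libraries, so their levels and the difference between diets are given as a description, without a p-value. The mice carried the APPswe and PSEN1dE9 transgenes of the strain B6.Cg-Tg(APPswe,PSEN1dE9)85Dbo/Mmjax, in which the mouse prion protein promoter drives both transgenes, so every library came from a model of amyloid deposition and none from a wild-type mouse. They were bred in-house from purchased founders and were moved from chow to a diet at 6 months of age, with 1 mouse per cage. Mice on the control diet (CD, called SD in the sample labels) took 74% of their energy as carbohydrate, 16% as fat and 10% as protein. Those on the ketogenic diet (KD) took under 0.5% as carbohydrate, 90% as fat and 10% as protein. After 7 months on diet, at 13 months of age, cortex RNA of 4 CD and 3 KD mice was sequenced, with 1 library per mouse, and the sex of each mouse was not given in the sources used here.

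Clcn4-2 is an older symbol of Clcn4, which encodes ClC-4, a member of the CLC family of chloride channels and transporters. ClC-4 exchanges chloride for protons across the membranes of endosomes, where it works alongside the proton-pumping V-ATPase, and in the brain it pairs with its close relative ClC-3. Variants of the human gene, which lies on the X chromosome, are known to cause intellectual disability and epilepsy, whereas in laboratory mice the gene is autosomal. Gm8615 is a transcribed processed pseudogene, a copy of a messenger RNA that was written back into the genome without introns. Such copies lack the promoter of their parent, and they can be read as RNA where other sequence near them starts transcription.

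In GRCm38, the genome the authors aligned to under its name mm10, Clcn4 lies on the minus strand at chr7:7282309-7300851 and is protein coding. RefSeq gives 2 promoter windows for the gene in the GRCm38.p6 build. They are shown as annotated starts of a gene that was nearly missing from 4 of the 7 libraries. Both lie inside the longer GENCODE gene, and counts per gene do not show which start was used. Both are written 5′ to 3′ on the strand of the gene, and the capitals in the first mark the cAMP response element TGACGTCA, a palindrome that reads the same on both strands.
Clcn4 promoter at chr7:7299508-7299807: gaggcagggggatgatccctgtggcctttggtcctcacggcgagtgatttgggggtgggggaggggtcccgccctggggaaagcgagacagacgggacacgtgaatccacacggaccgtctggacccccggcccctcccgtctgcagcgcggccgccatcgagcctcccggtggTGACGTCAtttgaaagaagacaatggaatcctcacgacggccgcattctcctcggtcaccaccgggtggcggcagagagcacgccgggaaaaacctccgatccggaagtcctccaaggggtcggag
Clcn4 promoter at chr7:7298787-7299086: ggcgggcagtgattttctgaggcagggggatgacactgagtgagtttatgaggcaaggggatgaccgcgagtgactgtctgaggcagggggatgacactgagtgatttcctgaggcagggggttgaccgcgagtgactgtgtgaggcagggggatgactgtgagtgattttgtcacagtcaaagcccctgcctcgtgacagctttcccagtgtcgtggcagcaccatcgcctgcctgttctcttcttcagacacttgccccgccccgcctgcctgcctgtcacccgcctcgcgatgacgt
This element, looked for after the sequence had been read, stands at bases 175 to 182 of the first window and is not whole in the second. The second window ends in tgacgt, the start of the element, and the bases beyond its end were not searched. It occurs in 588 of the 32851 RefSeq promoter windows of the same length, or 1.79%, and the match is a description of letters, not of a bound site.

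Gm8615 lies at chr5:149155108-149156209 (GRCm38), also on the minus strand. Its 771-base transcript Gm8615-201 could be aligned without gaps to the messenger RNA of Gnpda1, glucosamine-6-phosphate deaminase, from base 18 to base 770. Of these 753 aligned bases, 746 were identical and 7 differed, an identity of 99.07%. An exact 50-base stretch of Gnpda1 was found in 413 of the 722 possible windows of that length (57.2%) of Gm8615-201 and in 260 of the 688 windows (37.8%) of its spliced transcript Gm8615-202. No other gene held any of them. Every other window of Gm8615 differs from the annotated Gnpda1 transcripts in at least 1 base. None of the 4558 windows of the 4607-base transcript Clcn4-201 was found in the transcripts of another gene.

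The 7 libraries held 22272883 to 36614954 counts, so that 3 counts were worth 0.0789 to 0.133 CPM. CPM stands for counts relative to a common library total, here after scaling by the trimmed mean of M-values (TMM). Of the markers of cortical excitatory neurons, Slc17a7 was at 429 to 630 CPM in the CD libraries and 576 to 631 in the KD libraries, Tbr1 at 53.2 to 81.9 and 42.3 to 84.1, and Neurod6 at 92.5 to 158 and 43.3 to 146, with none missing from a library. Some libraries stood apart in markers of other cells. The 3 olfactory bulb markers summed to 41 CPM in CD replicate 4, 13.3 in KD replicate 3 and at most 4.46 in the others, and the 3 choroid plexus markers summed to 441 CPM in CD replicate 1 against 7.73 to 56.5 elsewhere. The 3 oligodendrocyte markers were lowest in CD replicate 3 and KD replicate 3, at 844 and 880 CPM, with a range of 1677 to 3318 elsewhere. App, the mouse counterpart of a transgene, was at 2688 to 3343 CPM, and Prnp, whose promoter drives the transgenes, at 2594 to 3461 CPM. Whether reads of the transgenes were counted on these genes was not tested.

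Clcn4-2 had 4978 counts in CD replicate 3, 11820 in CD replicate 4 and 5766 in KD replicate 2. In the other 4 libraries it had 29 counts (CD replicate 1), 4 (CD replicate 2), 7 (KD replicate 1) and 5 (KD replicate 3). Scaled to library size, the level was 311 CPM in CD replicate 4 (95% Poisson interval 305 to 317), 173 CPM in KD replicate 2 (168 to 177) and 152 CPM in CD replicate 3 (148 to 156). High levels were thus found on both diets.

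The low libraries were not all at the same level. CD replicate 1 had 0.83 CPM (0.555 to 1.19), KD replicate 1 had 0.302 (0.121 to 0.622), KD replicate 3 had 0.221 (0.0718 to 0.516) and CD replicate 2 had 0.137 (0.0373 to 0.350). All 4 were above the level of 3 counts, so that some reads were assigned to the gene in every library. Counts this low were also seen for the sex-linked genes described below. The Y-linked genes were at 0 to 0.308 CPM in the libraries with high Xist, and Xist at 0.310 to 3.08 CPM in the others. Whether the few reads of Clcn4-2 came from RNA of the same mouse was not tested. The intervals are exact and cover counting error only. CD replicate 1 exceeded KD replicate 1 by a ratio of 2.74 (95% interval 1.18 to 7.42). KD replicate 1 and KD replicate 3 had a ratio of 1.37 (0.373 to 5.46), and KD replicate 3 and CD replicate 2 one of 1.62 (0.348 to 8.15), so these neighbours were not separated at this depth.

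Between the lowest of the high libraries and the highest of the low ones, CD replicate 3 and CD replicate 1, Clcn4-2 differed 183-fold (95% interval 128 to 274). The high libraries differed among themselves too. CD replicate 4 had 1.80 times the level of KD replicate 2 (1.75 to 1.86) and 2.05 times that of CD replicate 3 (1.98 to 2.11), whereas KD replicate 2 had 1.14 times that of CD replicate 3 (1.09 to 1.18). All 3 ratios were beyond counting error, but each library is a single mouse, and the spread between mice of 1 kind cannot be taken from them. CD replicate 4 was also the library with the highest olfactory bulb and meningeal markers, and their part in its level was not tested. In bulk cortex, fewer cells that express a gene and less RNA per cell cannot be told apart.

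**Figure D1:**
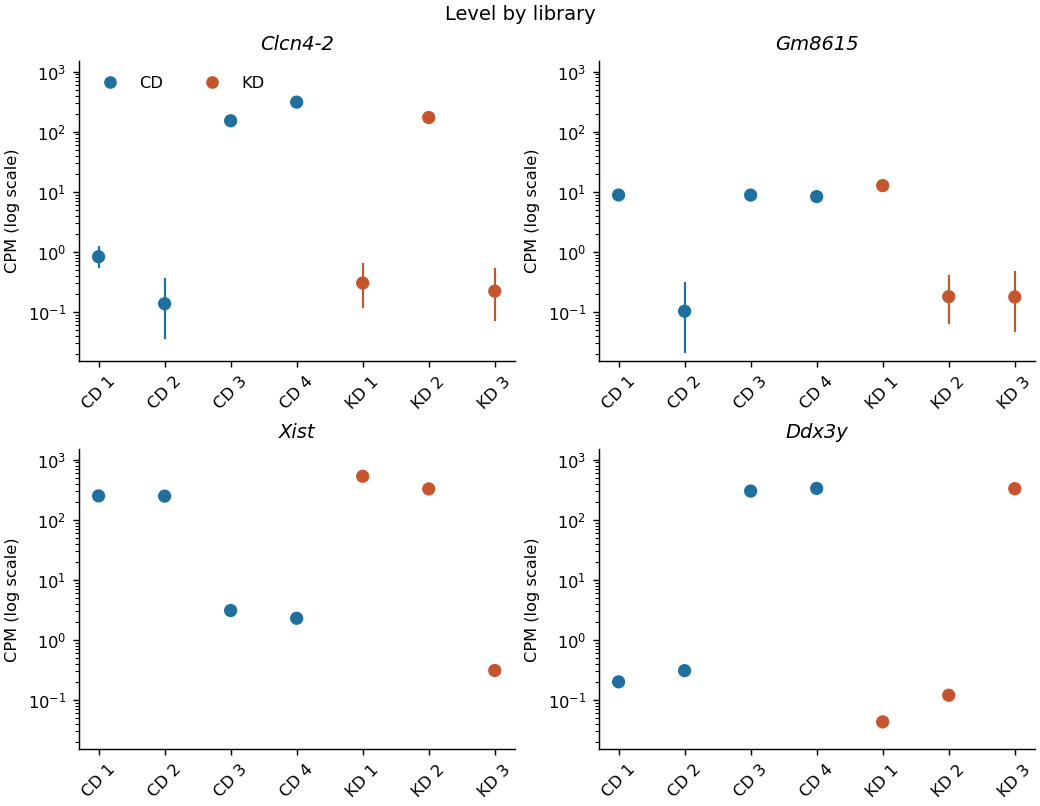
Levels of Clcn4-2, Gm8615, Xist and Ddx3y in the 7 libraries, in TMM-scaled CPM on a log axis, with CD libraries in blue and KD libraries in orange; bars on the 2 autosomal genes are 95% Poisson intervals. Clcn4-2 is at 152 CPM or more in CD replicates 3 and 4 and KD replicate 2 and under 1 CPM in the rest, Gm8615 is at 8.31 CPM or more in CD replicates 1, 3 and 4 and KD replicate 1, and neither follows the split of Xist and Ddx3y.

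Gm8615 had 309, 288 and 316 counts in CD replicates 1, 3 and 4 and 293 counts in KD replicate 1. It had 3 counts in CD replicate 2, 6 in KD replicate 2 and 4 in KD replicate 3. The high libraries were close to each other. Their levels were 12.6 CPM in KD replicate 1 (95% Poisson interval 11.2 to 14.2), 8.83 in CD replicate 1 (7.87 to 9.87), 8.79 in CD replicate 3 (7.81 to 9.87) and 8.31 in CD replicate 4 (7.42 to 9.28). KD replicate 1 exceeded CD replicate 1 by a ratio of 1.43 (1.22 to 1.69). The 3 CD libraries followed with ratios of 1.0 (0.853 to 1.18) and 1.06 (0.899 to 1.25) from one to the next, which are within counting error.

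In the low libraries Gm8615 was at 0.180 CPM in KD replicate 2 (0.0659 to 0.391), 0.177 in KD replicate 3 (0.0482 to 0.453) and 0.103 in CD replicate 2 (0.0211 to 0.300). The last of these is the level of 3 counts itself. No difference among the low libraries was detectable at this depth, with ratios of 1.01 (0.241 to 4.89) and 1.72 (0.292 to 11.8) between neighbours in order. From CD replicate 4 down to KD replicate 2 the ratio was 46.3 (21 to 127).

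The patterns of the pair were different. Both genes were high in 2 libraries (CD replicates 3 and 4) and both low in 2 (CD replicate 2 and KD replicate 3). Gm8615 alone was high in 2 (CD replicate 1 and KD replicate 1), and Clcn4-2 alone in 1 (KD replicate 2). Every combination of high and low was therefore present among the 7 mice. Clcn4-2 was high in 2 of 4 CD and 1 of 3 KD libraries, and Gm8615 in 3 of 4 CD and 1 of 3 KD libraries.

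Neither pattern was that of the sex-linked genes. Xist, the RNA that coats the inactive X chromosome of females, was at 248 to 530 CPM in CD replicates 1 and 2 and KD replicates 1 and 2 and at 0.310 to 3.08 CPM in the other 3 libraries. The Y-linked Ddx3y, Uty, Eif2s3y and Kdm5d were at 84.1 to 333 CPM in CD replicates 3 and 4 and KD replicate 3 and at 0 to 0.308 CPM elsewhere. Tsix, the antisense partner of Xist, had at most 7 counts and was not tested. Clcn4-2 was high in 1 of the 4 libraries with high Xist and in 2 of the 3 with high Y-linked genes, and for Gm8615 these counts were 2 of 4 and 2 of 3. KD replicate 2 (high Xist, high Clcn4-2) and KD replicate 3 (high Y-linked genes, low Clcn4-2) were the libraries in which Clcn4-2 departed from the Y-linked genes. Xist and the Y-linked genes sorted the libraries into the same sets from opposite ends, with no library high or low for both.

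By diet, Clcn4-2 averaged 116 ± 148 CPM in CD (SD, n = 4) and 57.7 ± 99.5 CPM in KD (SD, n = 3), and the ranges overlapped. In the quasi-likelihood fit of edgeR across all tested genes, its log2 fold change of KD over CD was -1.0 with a standard error of 2.61. Without CD replicate 4 it was 0.18, and without KD replicate 2 it was -8.77. Gm8615 averaged 6.51 ± 4.28 CPM in CD (SD, n = 4) and 4.33 ± 7.20 CPM in KD (SD, n = 3), and these ranges overlapped as well. Its log2 fold change was -0.60 with a standard error of 1.43, and it was -5.16 without KD replicate 1 and -0.03 without KD replicate 2. The direction of Clcn4-2 and the size of both differences thus depended on which mouse was present. Among all tested genes, the CD and KD ranges were separate for 652 of 15881, or 4.11%. With the quasi-likelihood test of edgeR and Benjamini-Hochberg adjustment, 0 of 15881 genes (0.0%) were called at an adjusted p under 0.05, and the smallest adjusted p was 0.979. At an unadjusted p under 0.05 there were 506 genes (3.19%), and at 0.01 or less 51 genes (0.321%). DESeq2 called 0 genes after adjustment too.

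To place the members among all genes, the 7 values of log2(CPM + 0.1) of each gene were sorted and the widest step between neighbours was taken. The median of this step over the 15881 tested genes was 0.24 and the 99th percentile was 1.74. Clcn4-2, with a step of 7.36, had the fifth widest of all tested genes, and Gm8615, with 4.91, was at rank 7. Ahead of Clcn4-2 were the Y-linked Ddx3y (9.53), Uty (8.99), Kdm5d (8.44) and Eif2s3y (8.23), and between the members stood Xist (6.28). The members were the autosomal genes with the widest steps in these libraries. They were chosen by these same counts, so their ranks only describe that choice.

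A step of at least 3 on this log2 scale, or 8-fold, was found in 26 genes (0.164% of those tested), with 1 library above all others in 13 of them and 1 below all others in 3. KD replicate 3 alone was above the step in 8, among them Lhx9 (4.42), a transcription factor of the thalamus and midbrain, and Ecel1 (4.37), a neuronal endopeptidase. CD replicate 4 alone was above in 4 and below in 2, of which Tmem215 (4.53) had 20 counts there and 334 to 873 in the others. At least 2 libraries on each side were found in 10 genes (0.063%), namely the 4 Y-linked genes, Xist and 5 autosomal genes. Beside the members, these autosomal genes were Nts (3.62), the precursor of the neuropeptide neurotensin, and Ndst4 (3.45), a heparan sulfate-modifying enzyme, both high in CD replicate 4 and KD replicate 3, and Gm5506 (3.52), low in CD replicate 4 and KD replicate 2. None of the other genes with such a step had the same libraries as a member on its 2 sides.

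**Figure D2:**
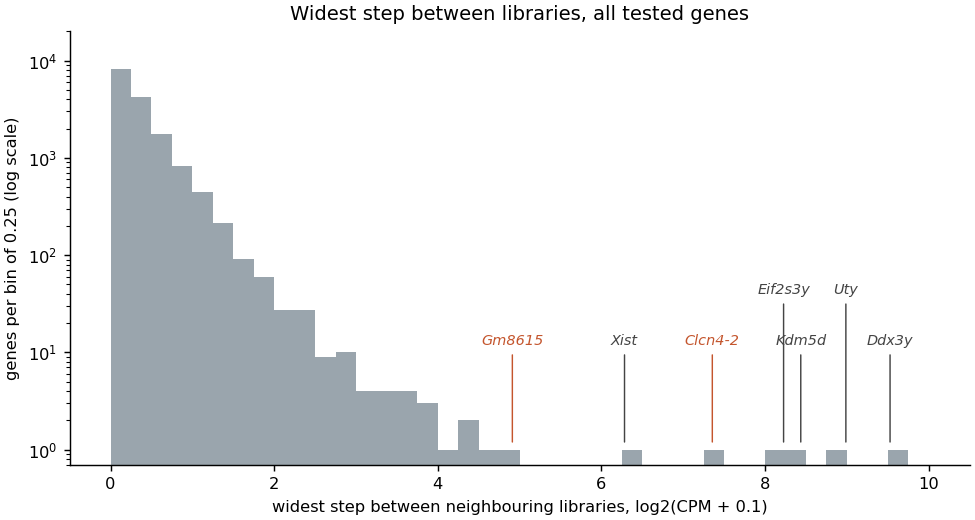
Histogram of the widest step between neighbouring libraries in log2(CPM + 0.1) for the 15881 tested genes, with the number of genes per bin of 0.25 on a log axis. The median is 0.24, and the labelled genes from Gm8615 (4.91) and Clcn4-2 (7.36) to Ddx3y (9.53) lie beyond the bulk of the genes.

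With no condition on the size of the step, 351 genes (2.21% of those tested, Clcn4-2 included) had CD replicates 3 and 4 and KD replicate 2 above all other libraries, and 362 (2.28%) had them below. The widest such steps after Clcn4-2 were small, at 0.79 for Strc, which encodes stereocilin of the inner ear, and 0.56 for Serpinb5. The libraries high for Gm8615 were above all others in 396 genes (2.49%, Gm8615 included) and below in 460 (2.90%), with next steps of 1.11 for Hbegf, an epidermal growth factor receptor ligand, and 0.85 for Endou. No other tested gene came near the members' steps on the same libraries, but the members were chosen by these counts.

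Likeness was also measured over the 7 libraries as the root mean square difference between the mean-centred log2(CPM + 0.1) of a gene and of the member. The 5 genes most like Clcn4-2 were Fermt1 (3.59), 5930438M14Rik (3.62), Ccl28 (3.62), Gm5127 (3.64) and Cilp (3.66), where the root mean square of Clcn4-2 about its own mean was 4.47. The 5 most like Gm8615 were Sebox (1.81), Gm1653 (1.84), Dkk2 (1.91), Cdh3 (1.92) and Aqp1 (1.93), against 2.61 for Gm8615 itself. Even the nearest gene was thus not close to either member on this scale. Fermt1, an integrin activator of epithelia, was at 23.9 CPM in CD replicate 4 and at 0.663 to 3.29 CPM in the others, and Sebox, a homeobox gene, was at 2.39 to 6.73 CPM in the libraries other than KD replicates 2 and 3, which had 1.02 and 0.752 CPM. None of these 10 genes lay on the chromosome of the member it was matched to, though no position was found for Gm1653.

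The genes around Clcn4-2 include zinc finger, vomeronasal receptor and olfactory receptor genes and the imprinted Peg3 cluster. Within 1 Mb, 35 other genes were counted and 15 of them were tested. Of these 15, 2 had all libraries high for Clcn4-2 above the rest, where the share among all tested genes was 2.21%, and 0 had them below (2.28%). Vmn2r29, a vomeronasal receptor at chr7:7231327-7247328, lies 34981 bases from Clcn4 and was the nearest tested gene. It was at 5.55 CPM in CD replicate 4, 3.29 in KD replicate 2, 2.5 in CD replicate 3, 2.32 in CD replicate 2, 1.77 in KD replicate 1, 1.23 in CD replicate 1 and 0.884 in KD replicate 3. The next, Zfp772 at chr7:7202117-7209998, a zinc finger gene 72311 bases away, was at 13.7 CPM in CD replicate 4, 11.6 in KD replicate 2 and 10.3 in CD replicate 3 and at 6.94 to 8.37 in the other 4.

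Vmn2r29 and Zfp772 had the same order of libraries from highest to lowest, and it began with the 3 libraries high for Clcn4-2 in the order of Clcn4-2. Their steps at that point were 0.10 and 0.29 on the log2 scale, against 7.36 for Clcn4-2. That of Vmn2r29 lay between 82 counts in CD replicate 3 and 68 in CD replicate 2. Whether it is beyond counting error was not tested. Both are on the minus strand, as Clcn4 is, and lie beyond its 3′ end.  The next tested genes on that side, Zfp418, Zfp773 and Zfp954, did not have the libraries sorted this way, and Zfp418 was at 6.94 to 8.65 CPM throughout. On the 5′ side the nearest gene, Vmn2r30, 9586 bases away, had at most 1 count in any library, and Vmn2r31, Vmn2r32 and Vmn2r33 had 0. In the Peg3 cluster, Zim1 was at 9.24 CPM in KD replicate 3 and at 0.658 to 1.79 CPM elsewhere, and Peg3 was at 248 to 398 CPM. None of the 15 neighbours was called between diets after adjustment, none had an unadjusted p under 0.05, and 11 were higher and 4 lower in KD (median log2 fold change 0.12).

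Around Gm8615, 20 other genes were counted within 1 Mb and 17 were tested, of which 0 had the libraries high for Gm8615 all above the rest (2.49% of all tested genes) and 0 all below (2.90%). Gm8615 lies within Hmgb1, which encodes a chromatin protein, on the same strand. It sits in a 131247-base intron (chr5:149050752-149181998) of 1 of the 10 annotated Hmgb1 transcripts, and overlaps 0 of its exons. Hmgb1 was at 66.8, 82.5, 68.0 and 87.6 CPM in CD replicates 1 to 4 and at 56.9, 72.9 and 75.4 CPM in KD replicates 1 to 3, which is not the order of Gm8615. The long noncoding gene 5730422E09Rik, which also spans Gm8615, was at 0.343 to 1.47 CPM, with its highest value in KD replicate 1, where Gm8615 was highest too, and its lowest in CD replicate 1, where Gm8615 was high. Uspl1, 28141 bases away, was at 45.2 to 53.5 CPM. None of the 17 was called between diets after adjustment, and 1 had an unadjusted p under 0.05.

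**Figure D3:**
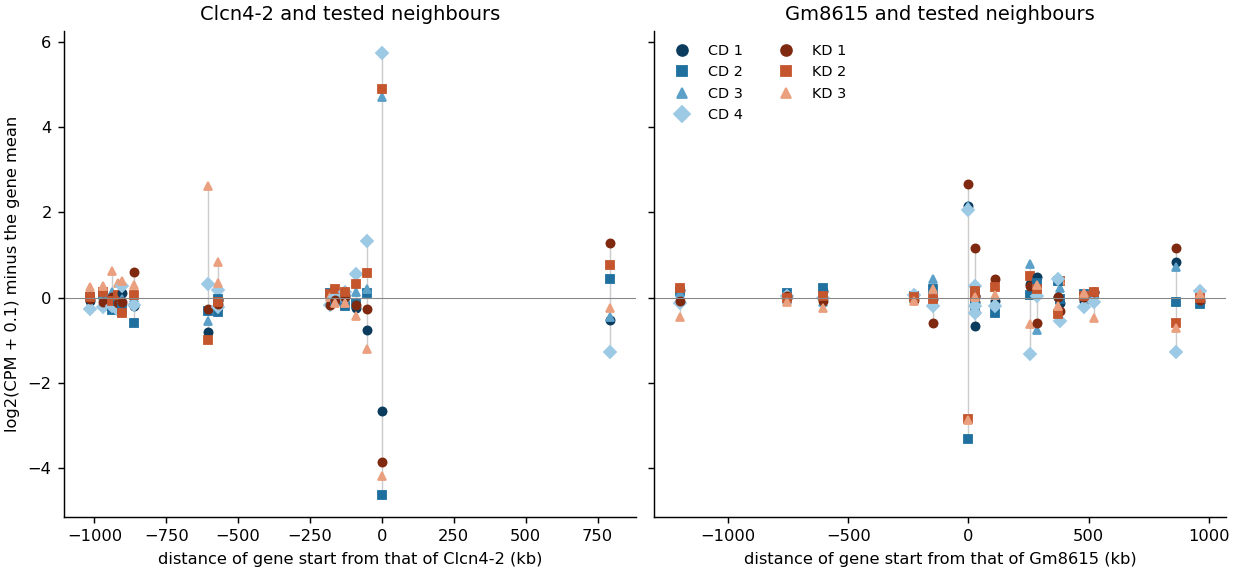
Each tested gene within 1 Mb of Clcn4-2 (left) and Gm8615 (right) at the distance of its start from that of the member in kb, with 1 point per library for log2(CPM + 0.1) minus the mean of the gene over the 7 libraries. The members, at distance 0, fall into separate sets of libraries (steps of 7.36 and 4.91), whereas Vmn2r29 and Zfp772, just left of Clcn4-2, have steps of 0.10 and 0.29.

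Gnpda1, the parent of Gm8615, encodes the enzyme that turns glucosamine 6-phosphate back into fructose 6-phosphate and ammonia. It was at 13, 12.8 and 12.0 CPM in CD replicates 1, 3 and 4 and at 12.7 CPM in KD replicate 1, the libraries in which Gm8615 was high. It was at 16.3 CPM in CD replicate 2, 17.7 in KD replicate 2 and 18.4 in KD replicate 3, where Gm8615 was nearly missing. Gnpda1 was therefore lower in each of the 4 libraries high for Gm8615 than in each of the other 3, with a step of 0.32 on the log2 scale, as it was for 2.90% of all tested genes. This gene was looked at because of its sequence. Reads from stretches shared by the pair could be lost or assigned to either gene. The opposite order is therefore uncertain as a measure of Gnpda1 RNA.

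Counts of Gm8615 and Gnpda1 together were at 21.9, 16.4, 21.6 and 20.4 CPM in CD replicates 1 to 4 and at 25.3, 17.9 and 18.6 CPM in KD replicates 1 to 3. The sum was still higher in each of the 4 libraries in which Gm8615 was high. Of this sum, Gm8615 took 40.4%, 40.7% and 40.8% in CD replicates 1, 3 and 4 and 49.9% in KD replicate 1. It took 0.624% in CD replicate 2, 1.0% in KD replicate 2 and 0.952% in KD replicate 3. These are shares of assigned reads, not of transcripts, because the genes differ in length and in how much of them can be told apart. Gnpda2, the other deaminase gene, varied little, from 26.8 to 30.3 CPM.

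**Figure D4:**
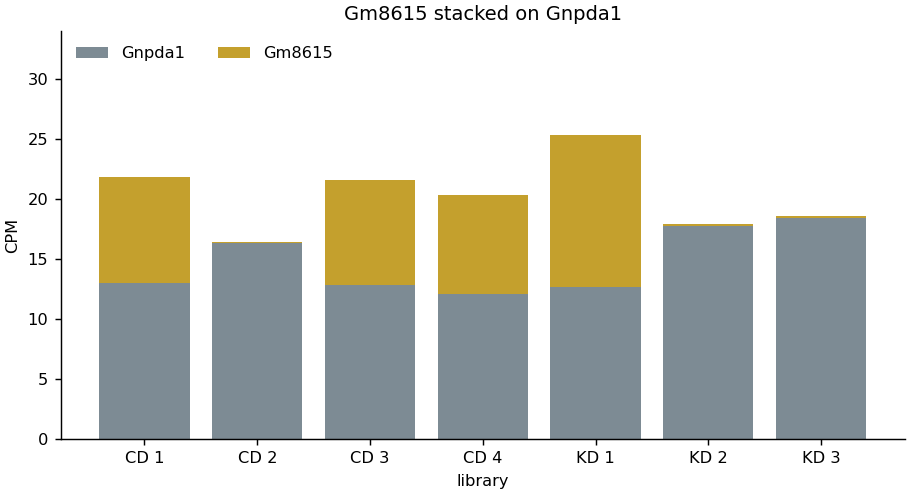
Stacked bars of CPM counted on Gnpda1 (grey) and on its processed pseudogene Gm8615 (yellow) in each library, from 0. Gm8615 makes up 40.4% to 49.9% of the sum in CD replicates 1, 3 and 4 and KD replicate 1 and at most 1.0% in CD replicate 2 and KD replicates 2 and 3, where the Gnpda1 part is taller.

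The 9 genes of the glucosamine 6-phosphate and hexosamine route were all tested, and 0 were called between diets after adjustment, with 0 at an unadjusted p under 0.05. In KD, 6 were higher and 3 lower than in CD (median log2 fold change 0.08). Over all tested genes, 7788 had a positive and 8093 a negative fold change, around a median of -0.0033. Gfpt1, which forms glucosamine 6-phosphate, averaged 124 ± 14.4 CPM in CD (SD, n = 4) and 121 ± 6.07 CPM in KD (SD, n = 3). Uap1, the last enzyme on the way to UDP-N-acetylglucosamine, averaged 83.9 ± 4.01 CPM in CD and 74.6 ± 16.3 CPM in KD, the latter with 56.1 CPM in KD replicate 3.

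Levels within the CLC family can be set side by side only per length, here as CPM per kb of annotated exon. On this scale Clcn4-2 was at 36.3 in CD replicate 4, 20.1 in KD replicate 2 and 17.7 in CD replicate 3. Clcn3, which encodes its endosomal partner ClC-3, was at 19.8 to 22.4 in the 7 libraries. Clcn4-2 was therefore the highest of the family in CD replicate 4 and lay below Clcn3 in KD replicate 2 and CD replicate 3. In the other 4 libraries it was at 0.0159 to 0.0967, below the lowest level of the muscle chloride channel gene Clcn1 (0.359).

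No other tested member of the family was near missing from a library. The widest range was that of Clcn1, at 0.359 to 0.728 CPM per kb, with 2.03 times between its lowest and highest library. Clcn6 of late endosomes was at 12.6 to 14.8 CPM per kb, Clcn7 of lysosomes at 10.8 to 12.0, and Ostm1, the partner of ClC-7, at 13 to 15.3. The plasma membrane channel gene Clcn2 was at 7.80 to 11.9 and the endosomal exchanger gene Clcn5 at 1.03 to 1.38. Across CD replicates 1 to 4, Clcn3 was at 22.1, 22.1, 20.3 and 19.8 CPM per kb, and across KD replicates 1 to 3 at 22.4, 21.8 and 20.8, so no library was near missing for it.

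**Figure D5:**
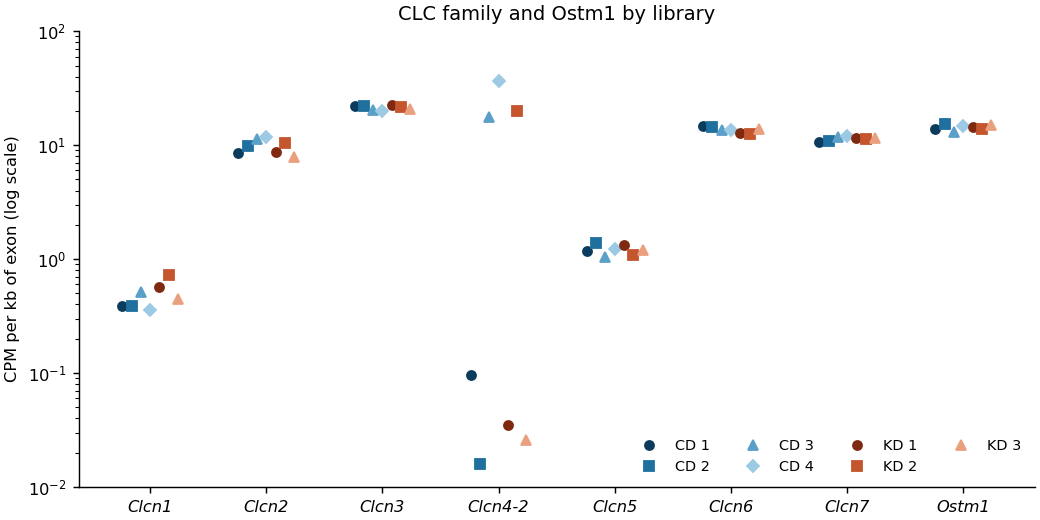
CPM per kb of annotated exon, on a log axis, for the 7 tested CLC family genes and Ostm1, with 1 symbol per library. Clcn4-2 spans from 0.0159 to 36.3, whereas the ranges of the other genes run from 19.8 to 22.4 for Clcn3 and 7.80 to 11.9 for Clcn2 to the widest, 0.359 to 0.728 for Clcn1.

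Beside Clcn4-2, 7 genes of the CLC list were tested and 0 were called between diets after adjustment, with 0 at an unadjusted p under 0.05. There were 5 higher and 2 lower in KD (median log2 fold change 0.02). Of 25 genes for endosome acidification (V-ATPase subunits, sodium-proton exchangers and endolysosomal cation channels), 24 were tested and 0 were called, with 15 higher and 9 lower (median 0.02). Atp6v1a, the catalytic subunit of the V-ATPase, averaged 1116 ± 94 CPM in CD (SD, n = 4) and 1192 ± 91.9 CPM in KD (SD, n = 3). The largest difference of the list was that of Slc9a5, a sodium-proton exchanger of neurons, at 14.1 ± 3.87 CPM in CD and 20.4 ± 3.84 CPM in KD. Atp6v0c, the proteolipid of the pump, was counted at 1 read in CD replicate 4 and 0 elsewhere and was left out of the test. Whether its RNA was missing or its reads were not assigned to it cannot be told from these counts.

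Genes known to differ between inbred strains were set beside the members. Nnt, the mitochondrial transhydrogenase gene, was at 23.7 to 36.2 CPM and Glo1, the glyoxalase gene, at 75.5 to 126 CPM. Gabra2, a GABA-A receptor subunit gene, was at 72.3, 72.9, 89.5 and 73.6 CPM in CD replicates 1 to 4 and at 116, 51.2 and 163 CPM in KD replicates 1 to 3. Alad, a heme synthesis gene, was at 24.1 to 63.6 CPM. The highest library exceeded the lowest by 1.53 times for Nnt, 1.67 times for Glo1, 3.18 times for Gabra2 and 2.64 times for Alad, and 0 of these 4 genes were called between diets after adjustment. No library was near 0 for any of the 4. These genes need not be absent in any strain, so they cannot show the strain background of a mouse, which was not tested.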

How the data were processed

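RNA from the cortex of 7 APP/PS1 mice was sequenced as stranded total RNA libraries (TruSeq, Gold kit) in 50-bp pairs. The authors checked reads with FASTQC, mapped them to mm10 by STAR and took per-gene read numbers from HTSeq as built into STAR. Each of the 7 deposited files holds the raw counts of 1 mouse by gene symbol. Neither versions nor annotation nor strandedness of the counting are given in the sources used here. These sources also do not state how this counting treated reads on overlapping or near-identical genes.

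From these counts, edgeR 4.0.16 (R 4.3.3) was run with filterByExpr, TMM scaling, glmQLFit with robust fitting and glmQLFTest for KD against CD, with Benjamini-Hochberg adjustment over 15881 genes. Each standard error of an edgeR fold change was the absolute fold change divided by the square root of the F statistic of that test. It therefore restates the test result and is not a separate estimate. DESeq2 1.42.0 was an alternative. Groups came from the labels. The mice were separate animals, and no 2 libraries of a group held the same counts within sampling noise. Positions were taken from GENCODE M21 for 23054 of 23413 symbols (98.47%), 1277 of them through a RefSeq synonym. Poisson and ratio intervals (95%) cover counting error only. The procedure was tested on simulated data.

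The members and lists were chosen with earlier results of these data known. Named genes were the members, the 5 genes most like each, the 10 widest steps and any of at least 3 on a member's libraries, neighbours within 1 Mb (up to 5 nearest on each side), examples from the lists, and sex-linked, strain-variable and transgene-related genes. Other genes, such as Strc, Serpinb5, Hbegf, Endou, Nts, Ndst4, Gm5506, Peg3, Zim1 and 5730422E09Rik, were named after their values were seen. The glucosamine 6-phosphate list was to be used if a table named the parent of Gm8615, which was instead found by matching transcript sequences. Alternatives were RLE, upper-quartile and no scaling beyond library size, a filter of at least 1 count, DESeq2, a replicate block, a pseudocount of 0.5 CPM and leaving out each library. Some listed genes are not reported here.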

Additional observations from a re-analysis of the deposited data

Results flagged for a closer look

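Within the 4 CD libraries, 62 sets of values (the members, neighbours and listed genes) were searched for a library that lay far outside the rest, and 3 sets had one, where about 3.1 would by chance. Each is given as the gap to the nearest library divided by the whole range on the log2 CPM scale. Gm8615 in CD replicate 2 had a ratio of 0.984 (0.103 CPM against 8.31 to 8.83), which is the pattern for which the gene was chosen. Gabra2 in CD replicate 3 had 0.919 (89.5 CPM against 72.3, 72.9 and 73.6). Nnt in CD replicate 1 had 0.847 (36.2 CPM against 27.1, 27.9 and 28.3).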

How the results depend on the processing

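The log2 fold change of KD over CD was between -1.06 and -0.75 for Clcn4-2 and between -1.24 and -0.58 for Gm8615 under the other scalings, the other filter, DESeq2 and the replicate block. Leaving out 1 library moved Clcn4-2 from -8.77 (without KD replicate 2) to 0.18 (without CD replicate 4), and Gm8615 from -5.16 (without KD replicate 1) to -0.025 (without KD replicate 2). The counts of genes called after adjustment were 0 in every setting, for all genes, neighbours and lists. With the replicate block on replicates 1 to 3, the fold changes were -0.75 and -1.24, and 182 genes had an unadjusted p of at most 0.01, against 51 without it. The deviations of libraries with the same number correlated at 0.251, 0.195 and 0.098, so the numbers were not taken to pair them. At the same threshold DESeq2 gave 132 genes, and leaving out a library gave 19 (without CD replicate 1) to 211 (without CD replicate 3), with 33 without CD replicate 4 or KD replicate 3, 31 without CD replicate 2 and 96 without KD replicate 2.

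The step of Clcn4-2 was 6.84 with a pseudocount of 0.5 CPM and 7.36 to 8.56 without 1 library, and that of Gm8615 was 3.70 and 4.91 to 4.99. The number of genes with a step of at least 3 was 40 with the filter of at least 1 count and 24 to 31 without 1 library, and it was 99 for steps of at least 2 and 11 for steps of at least 4. With 4 and 3 mice per diet and library-specific levels of this size, the standard errors of both fold changes exceeded the fold changes, and differences among the low libraries rest on 3 to 29 counts.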
